A study of Homo sapiens with 4 samples.

Results

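A gene responds additively to 2 manipulations when the log2 change caused by one is the same with and without the other. This was measured in HepG2, a human liver cancer line of hepatoblast-like cells, for a hairpin against PJA1 and for the cytokine TGFb1. For each gene the log2 ratio of shPJA/TGFb1 over shPJA1 (the hairpin pair) had the log2 ratio of TGFb1 over shCtrl (the control pair) subtracted from it, with 1 added to each normalized count. The difference is called the departure from additivity. A departure above 0 means that the TGFb1 ratio was higher in the hairpin pair, and a departure of 1 is a 2-fold difference between the ratios. It was computed for the 6166 of 23368 genes whose normalized count, the reads of a gene divided by the size factor of its library, averaged at least 50 over the 4 libraries.

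Each condition had 1 RNA library of HepG2 cells. The library titled shPJA/TGFb1 is taken as cells with a lentiviral hairpin against PJA1 and 200 pM TGFb1 for 1 hour, from its title and the protocol, although it carries a treatment label of water and the design text names an untreated control where it should stand. The library titled shPJA1 carried the PJA1 hairpin without TGFb1. The TGFb1 library received the same dose for the same time, and the labels do not say whether it carried a control hairpin. The shCtrl library carried the control hairpin without TGFb1. All 4 share the HepG2 background, and the hairpin cells are described as infected, with no clone named.

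With no replicate of any condition, the departure takes up the last degree of freedom the 4 libraries offer, so no departure has a test. Intervals are 95% exact intervals of counting error alone, which do not include the spread between cultures or libraries.

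TGFb1 binds a pair of serine/threonine kinase receptors, which phosphorylate SMAD2 and SMAD3. These join SMAD4, enter the nucleus and switch on early genes, among them SMAD7 and SKIL, which feed back on the pathway. PJA1 (praja ring finger ubiquitin ligase 1) attaches ubiquitin to proteins and has been described as acting on SMAD3 and its adaptor SPTBN1. The departure of SMAD target genes addresses whether the TGFb1 response differs with and without the hairpin.

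The hairpin target came first as a check of the titles. PJA1 had 9.78 normalized counts in the library titled shPJA/TGFb1 and 15.3 in shPJA1, compared with 38.2 in TGFb1 and 50.3 in shCtrl, so it was low in both libraries titled for the hairpin, and its mean of 28.4 kept it below the level set for the departure. Total reads were 990698 in the library titled shPJA/TGFb1 and 1784689 in shPJA1, compared with 2848665 in TGFb1 and 1363318 in shCtrl. The 13 hepatocyte markers summed to 44091 and 44888 normalized counts in the hairpin pair, against 38582 and 42385 in the control pair, mostly from APOB. PTPRC, CD3E, HBA1, HBB, CDH5, KDR, TEK, DCN and LUM were at 0 in all 4 libraries. The 5 endothelial markers summed to 0 to 3.51. The 8 leukocyte and red cell markers summed to 1231 and 1360.5 in the hairpin pair, against 1079.8 and 1519 in the control pair, mostly from LYZ. The 8 fibroblast markers summed to between 184.5 and 199, mostly from ACTA2, and the 4 biliary markers to between 2897 and 3159. In such bulk RNA, fewer cells expressing a gene and less RNA per cell cannot be told apart.

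Departures were small for most genes. Their median was -0.03 and their SD 0.42 on the log2 scale over 6166 genes. At least 2-fold departures were found for 72 genes above additivity (1.17% of those measured) and for 57 below it (0.924%). At 1.5-fold the numbers were 456 above (7.4%) and 476 below (7.72%). The counting interval lay wholly above 0 for 652 genes (10.6%) and wholly below 0 for 818 (13.3%). It left out 0 for every one of the 129 genes with a 2-fold departure, which the level limit and the 2-fold rule nearly ensure.

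Large departures were found mainly among genes with few reads. Of 2159 genes with a mean of 50 to 100 normalized counts, 56 departed 2-fold upward and 45 downward, and the median width of their counting intervals was 1.48 log2 units. Among 1945 genes of 100 to 200 the numbers were 10 and 11, and among 1507 genes of 200 to 500 they were 4 and 1. Of the 555 genes with a mean of at least 500, 2 departed 2-fold upward, IER3 and SLC1A5, and 0 downward. The SD of the departure was 0.50, 0.40, 0.34 and 0.31 in these 4 classes from the lowest to the highest level.

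**Figure D1:**
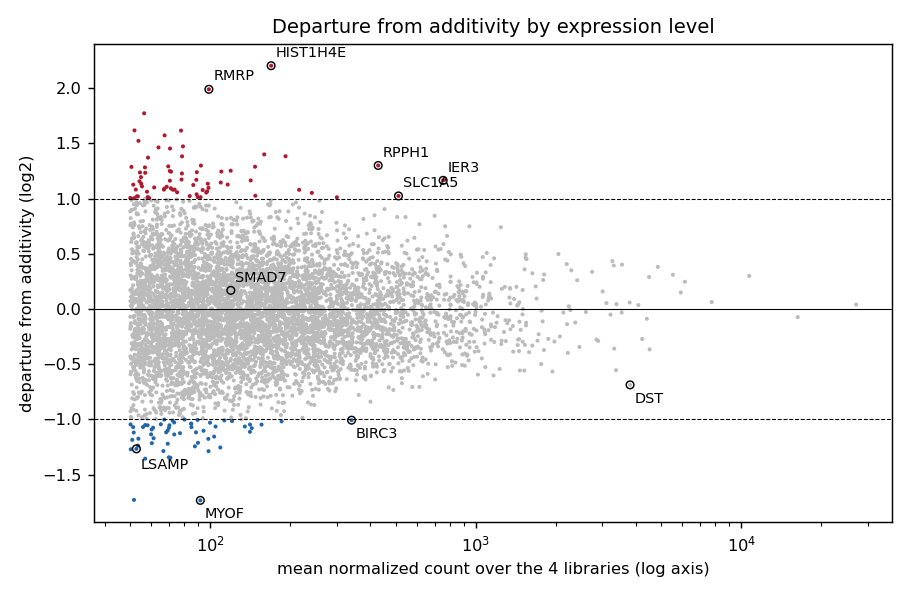
Departure from additivity (vertical axis, log2) against the mean normalized count over the 4 libraries (horizontal log axis), 1 point per gene for 6166 genes. Dashed lines mark 2-fold, with red points for the 72 genes above and blue points for the 57 below. HIST1H4E and RMRP stand highest and MYOF lowest, and the spread narrows as the count grows.

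The departure moved with base composition. The median GC content of the longest annotated transcript was 56.5% for the 72 genes above additivity and 40.7% for the 57 below, against 46.1% over all genes that had a value. Genes were divided by GC content into 5 classes of equal size. In the class of lowest GC content (31.5% to 40.1%) the median departure was -0.31, with 0 genes 2-fold above and 25 below. In the class of highest GC content (55.0% to 71.1%) it was 0.28, with 46 genes 2-fold above and 3 below. The 3 classes between had medians of -0.19, -0.03 and 0.13 from low to high GC.

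Both pairs carried the trend, in opposite directions. From the lowest to the highest class of GC content the hairpin pair had medians of -0.093, -0.053, 0.00042, 0.073 and 0.14, and the control pair had medians of 0.23, 0.13, 0.03, -0.086 and -0.14. Across genes, which share the same 4 libraries and are not replicates, Pearson's r with GC content was 0.51 for the departure, 0.32 for the hairpin pair and -0.45 for the control pair (n = 6109 genes with a GC value). With 1 library per condition, a library's GC trend and an effect of its condition cannot be told apart.

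Most departures that follow are therefore also given after removal of each library's smooth trend on GC content, called the GC-removed departure. Its SD was 0.36 over 6109 genes, and 40 genes lay 2-fold above (0.655%) and 33 below (0.54%). Of the 72 genes above additivity, 27 remained 2-fold above, and of the 57 below, 21 remained 2-fold below. Departures of longer transcripts were slightly lower (a Spearman rank correlation of -0.19 across genes), and after GC removal that correlation was -0.038.

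**Figure D2:**
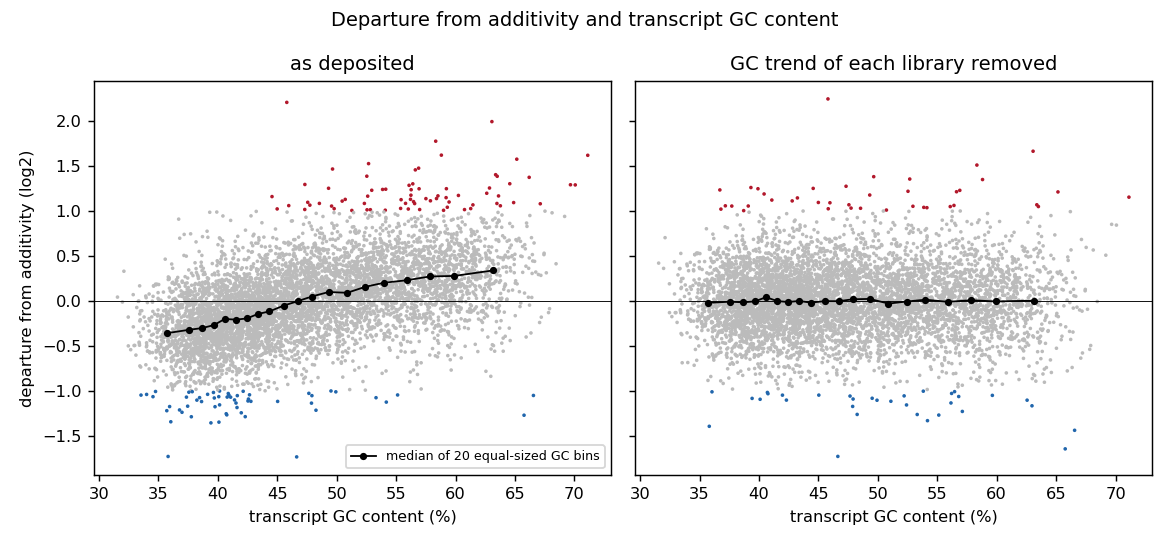
Departure from additivity (vertical axes, log2) against transcript GC content (horizontal axes, percent) for 6109 genes, as deposited on the left and with each library's GC trend removed on the right. Red and blue points depart 2-fold upward or downward, and black points are medians of equal-sized bins, which climb with GC content on the left and stay near 0 on the right.

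In most large departures the pairs had opposite signs, which the rule itself favours because it selects on the difference between the pairs. The pairs had opposite signs in 69 of the 72 genes above additivity and in 56 of the 57 below. Both log2 ratios were below 0 in the other 3 genes above, and both were above 0 in LSAMP, the single such gene below. Each pair's own counting interval left out 0, with opposite signs, in 28 of the 72 and in 18 of the 57. Over all 6166 genes the pairs shared a sign in 43.2% and had Pearson's r of -0.11. With the GC trend removed they shared a sign in 49.8% of 6109 genes and r was 0.028. The pairs share no library.

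The library that lay farthest from the other 3 was counted for each gene. In the 72 genes above additivity it was the library titled shPJA/TGFb1 (higher than the rest) in 13, shPJA1 (lower) in 9, TGFb1 (lower) in 39 and shCtrl (higher) in 11. In the 57 genes below it was the library titled shPJA/TGFb1 (lower) in 19, shPJA1 (higher) in 9, TGFb1 (higher) in 8 and shCtrl (lower) in 21. Over all genes the same 4 libraries were farthest, on either side, in 26.4%, 17.3%, 29.1% and 27.2%. The departure uses these same 4 values, so the side on which a library lay follows from the rule. These numbers are a description and no evidence on a condition.

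**Figure D3:**
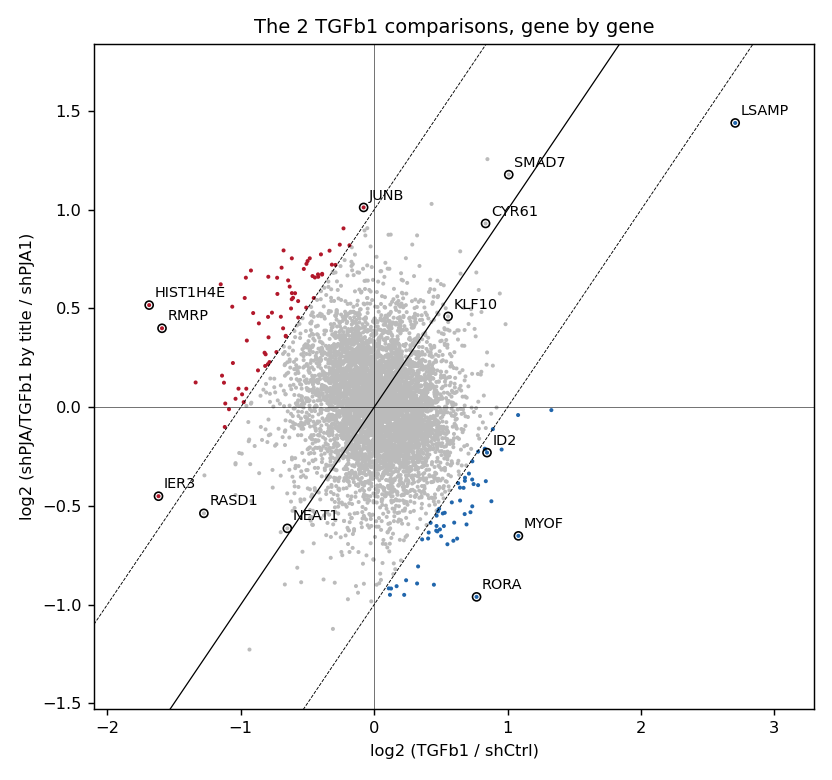
The hairpin pair (vertical axis, log2 of shPJA/TGFb1 over shPJA1) against the control pair (horizontal axis, log2 of TGFb1 over shCtrl), 1 point per gene. The solid line is additivity and the dashed lines lie 2-fold away. SMAD7, CYR61, KLF10 and NEAT1 lie near the line, HIST1H4E and RMRP far to its upper left, and MYOF and RORA to its lower right.

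SMAD7, KLF10 and BHLHE40 lay close to additivity. SMAD7, the inhibitory SMAD that blocks the receptors, had 158 normalized counts in the library titled shPJA/TGFb1 and 69.3 in shPJA1, compared with 168 in TGFb1 and 83.0 in shCtrl. The departure was 0.17 (-0.43 to 0.77), or -0.10 with the GC trend removed, and both TGFb1-titled libraries were higher than both others. KLF10, a zinc finger repressor known as TGF-beta inducible early gene, had 512 normalized counts in the library titled shPJA/TGFb1 and 372 in shPJA1, compared with 548 in TGFb1 and 373 in shCtrl. It departed by -0.094 (-0.38 to 0.19). BHLHE40, a basic helix-loop-helix repressor, had 817 normalized counts in the library titled shPJA/TGFb1 and 554 in shPJA1, compared with 752 in TGFb1 and 552 in shCtrl, with a departure of 0.11 (-0.12 to 0.35). In all 3 genes the TGFb1 ratio was nearly the same with and without the hairpin, and the interval of the difference reached at most 0.77 in either direction.

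CTGF and CYR61, a pair of secreted targets, also lay near it. CTGF, a matricellular protein of the TGF-beta and YAP pathways, had 272 normalized counts in the library titled shPJA/TGFb1 and 169 in shPJA1, compared with 231 in TGFb1 and 136 in shCtrl, with a departure of -0.084 (-0.52 to 0.35). CYR61, its relative, had 145 normalized counts in the library titled shPJA/TGFb1 and 75.6 in shPJA1, compared with 138 in TGFb1 and 77.1 in shCtrl, with a departure of 0.10 (-0.51 to 0.71). Both genes were higher in each TGFb1-titled library than in its partner.

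SKIL, the SMAD co-repressor SnoN, had 229.8 normalized counts in the library titled shPJA/TGFb1 and 202 in shPJA1, compared with 254 in TGFb1 and 160.1 in shCtrl. The ratio was 1.14 (0.916 to 1.41) in the hairpin pair and 1.59 (1.31 to 1.94) in the control pair, a departure of -0.47 (-0.90 to -0.052) that shrank to -0.11 with the GC trend removed. SMURF2, a ubiquitin ligase for receptors and SMADs, had 253 normalized counts in the library titled shPJA/TGFb1 and 279 in shPJA1, compared with 282 in TGFb1 and 203 in shCtrl, and its departure of -0.61 (-1.001 to -0.23) became -0.34. Both genes have transcripts of low GC content, 33.4% and 39.3%.

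JUNB and ID2 lay farthest from additivity among the SMAD target genes with enough reads, in opposite directions. JUNB, an AP-1 subunit, had 103 normalized counts in the library titled shPJA/TGFb1 and 50.4 in shPJA1, compared with 56.4 in TGFb1 and 59.6 in shCtrl. Only the library titled shPJA/TGFb1 was high, with a ratio of 2.04 (1.40 to 2.97) in the hairpin pair and 0.946 (0.668 to 1.35) in the control pair. The departure was 1.09 (0.35 to 1.86) and 0.73 with the GC trend removed. ID2, a helix-loop-helix protein that blocks basic helix-loop-helix factors and is a classic target of BMP signalling, had 63.6 normalized counts in the library titled shPJA/TGFb1 and 74.7 in shPJA1, compared with 91.1 in TGFb1 and 50.3 in shCtrl. The ratio was 0.851 (0.566 to 1.26) in the hairpin pair and 1.81 (1.29 to 2.60) in the control pair. The departure was -1.08 (-1.87 to -0.32) and -1.26 with the GC trend removed.

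ID1 and ID3 are relatives of ID2. ID1 had 86.4 normalized counts in the library titled shPJA/TGFb1 and 62.1 in shPJA1, compared with 76.3 in TGFb1 and 45.6 in shCtrl, with a departure of -0.26 (-1.04 to 0.50) and -0.53 after GC removal, and was higher in each TGFb1-titled library than in its partner. ID3, with a mean of 29.4 and so not among the 6166 genes, had 42.4 normalized counts in the library titled shPJA/TGFb1 and 21.6 in shPJA1, compared with 22.2 in TGFb1 and 31.6 in shCtrl, with a departure of 1.43 (0.32 to 2.64). PMEPA1, a membrane-anchored SMAD inhibitor, averaged 5.39 normalized counts and was too low to place.

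IER3, EGR1, JUND and RASD1 lay above additivity. IER3, an early response gene induced by NF-kappaB, had 603 normalized counts in the library titled shPJA/TGFb1 and 825 in shPJA1, compared with 390.1 in TGFb1 and 1198 in shCtrl. Both TGFb1-titled libraries were lower than their partners, and the TGFb1 library without the hairpin was lowest of all. The ratio was 0.731 (0.646 to 0.826) in the hairpin pair and 0.326 (0.295 to 0.359) in the control pair, a departure of 1.17 (0.94 to 1.39) and of 0.90 with the GC trend removed. EGR1, a growth-factor-induced zinc finger activator, had 738 normalized counts in the library titled shPJA/TGFb1 and 791 in shPJA1, compared with 549 in TGFb1 and 990.0 in shCtrl, with a departure of 0.75 (0.54 to 0.97) and 0.52 after GC removal. JUND, an AP-1 subunit, had 169.5 normalized counts in the library titled shPJA/TGFb1 and 126 in shPJA1, compared with 104 in TGFb1 and 191 in shCtrl. Its departure was 1.29 (0.80 to 1.79), and 0.85 after GC removal, for a transcript of 69.7% GC. RASD1, a dexamethasone-inducible Ras-like GTPase, had 134 normalized counts in the library titled shPJA/TGFb1 and 194 in shPJA1, compared with 75.2 in TGFb1 and 184 in shCtrl, with a departure of 0.74 (0.23 to 1.26) and 0.43 after GC removal. In these 4 genes the TGFb1 library was the lowest of the 4.

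BIRC3, an inhibitor of apoptosis induced by NF-kappaB, departed the other way. It had 223 normalized counts in the library titled shPJA/TGFb1 and 322 in shPJA1, compared with 476 in TGFb1 and 341 in shCtrl. The ratio was 0.693 (0.565 to 0.846) in the hairpin pair and 1.40 (1.22 to 1.60) in the control pair, a departure of -1.01 (-1.36 to -0.66) that became -0.66 after GC removal. IL8, a chemokine and NF-kappaB target, departed by -0.72 (-1.10 to -0.35) and by -0.36 after GC removal, while SDC4, a syndecan in the same list, departed by 0.75 (0.56 to 0.94) and 0.69.

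**Figure D4:**
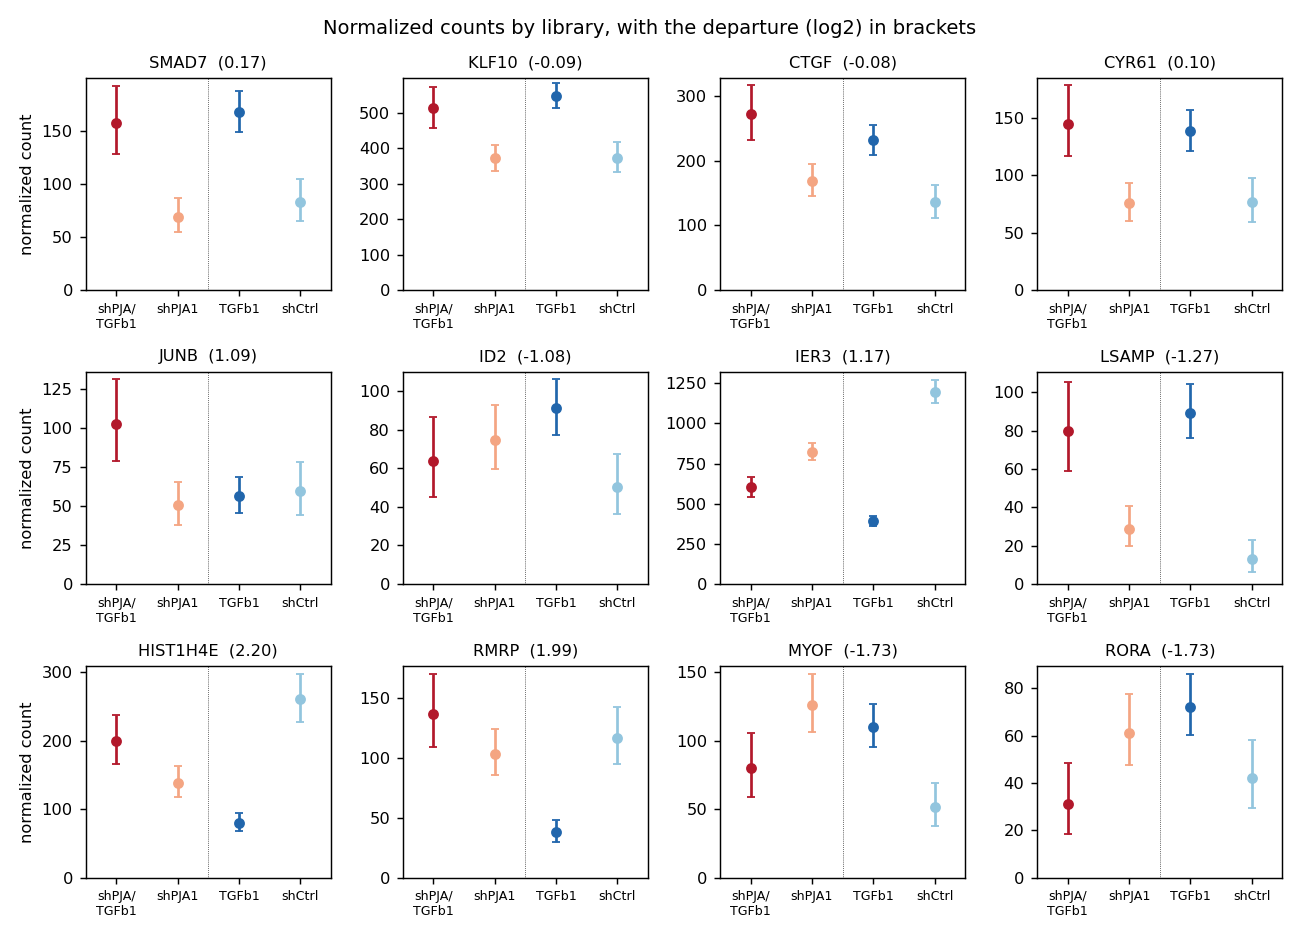
Normalized counts (vertical axes, from 0) of 12 genes in the library titled shPJA/TGFb1, shPJA1, TGFb1 and shCtrl, from left to right, with the departure (log2) in brackets. Bars are 95% exact Poisson intervals of counting error for the single library of each condition. SMAD7, KLF10, CTGF and CYR61 show the same step in both pairs, whereas HIST1H4E, RMRP, MYOF and RORA step in opposite directions.

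A histone RNA and an RNA of ribosomal RNA processing had the highest departures of all. HIST1H4E, a replication-dependent histone H4 gene, had 199 normalized counts in the library titled shPJA/TGFb1 and 139 in shPJA1, compared with 80.3 in TGFb1 and 261 in shCtrl. The ratio was 1.43 (1.12 to 1.83) in the hairpin pair and 0.308 (0.248 to 0.382) in the control pair, a 4.65-fold difference, with a departure of 2.20 (1.74 to 2.69) and 2.24 after GC removal. H4 genes are near-identical copies, so the count of a single one is uncertain. RMRP, the RNA of the RNase MRP complex, had 137 normalized counts in the library titled shPJA/TGFb1 and 104 in shPJA1, compared with 38.2 in TGFb1 and 117 in shCtrl, with a departure of 1.99 (1.38 to 2.65) and 1.66 after GC removal. RPPH1, the RNA of RNase P, had 502 normalized counts in the library titled shPJA/TGFb1 and 449 in shPJA1, compared with 239 in TGFb1 and 527 in shCtrl, with a departure of 1.30 (1.02 to 1.59) and 0.95. In all 3 the TGFb1 library was far below the other 3 libraries. RNAs of these kinds often lack a poly(A) tail, and whether this bears on their level in the TGFb1 library was not tested. SYMPK, a scaffold of messenger RNA 3' end processing, had 83.1 normalized counts in the library titled shPJA/TGFb1 and 52.2 in shPJA1, compared with 53.5 in TGFb1 and 93.5 in shCtrl, with a departure of 1.45 (0.74 to 2.21) and 1.21.

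Of 30 growth arrest, death receptor and BCL2 family genes, 2 lay at least 1.5-fold above additivity and 5 below. Over all genes the shares were 7.4% and 7.72%. The median departure of the list was 0.0015. Among the 5 below, FAS, a death receptor, departed by -1.04 (-1.75 to -0.35), PLK2, a polo-like kinase, by -0.87 (-1.38 to -0.37), and RRM2B, a ribonucleotide reductase subunit, by -0.73 (-1.23 to -0.23). After GC removal these 3 were at -0.76, -0.88 and -0.40. The list of 30 then had 1 member above and 3 below, against 4.85% and 4.81% of all genes.

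TOMM40 and PSMG3 were also among the highest. TOMM40, the channel of the outer membrane translocase, had 68.5 normalized counts in the library titled shPJA/TGFb1 and 44.1 in shPJA1, compared with 34.7 in TGFb1 and 78.3 in shCtrl, with a departure of 1.77 (0.98 to 2.63) and 1.51 after GC removal. PSMG3, a chaperone of proteasome assembly, had 70.1 normalized counts in the library titled shPJA/TGFb1 and 44.1 in shPJA1, compared with 31.3 in TGFb1 and 61.9 in shCtrl, with a departure of 1.62 (0.79 to 2.51) and 1.35. Both were lowest in the TGFb1 library. Of the respiratory chain, UQCRQ of complex III departed by 1.11 (0.39 to 1.86), NDUFS5 of complex I by 1.08 (0.32 to 1.86) and SDHA of complex II by 1.02 (0.37 to 1.70). After GC removal they stood at 0.997, 1.03 and 0.93.

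The 15 highest also held EFNA2, RAB3D, RAB11B, SLC13A5 and PGC. EFNA2, an ephrin ligand, had 114 normalized counts in the library titled shPJA/TGFb1 and 70.2 in shPJA1, compared with 43.3 in TGFb1 and 83.0 in shCtrl, with a departure of 1.62 (0.94 to 2.34) and 1.15 after GC removal for a transcript of 71.1% GC. RAB3D, a GTPase of secretory granules, had 65.2 normalized counts in the library titled shPJA/TGFb1 and 44.1 in shPJA1, compared with 35.3 in TGFb1 and 70.1 in shCtrl, with a departure of 1.52 (0.71 to 2.40) and 1.35. RAB11B, a GTPase of recycling endosomes, departed by 1.38 (0.71 to 2.09) and 1.05. SLC13A5, the liver citrate transporter, had 57.0 normalized counts in the library titled shPJA/TGFb1 and 52.2 in shPJA1, compared with 41.0 in TGFb1 and 105 in shCtrl, and here shCtrl stood apart from the other 3. Its departure was 1.46 (0.68 to 2.28) and 1.38 after GC removal. PGC, a pepsinogen, had 91.3 normalized counts in the library titled shPJA/TGFb1 and 52.2 in shPJA1, compared with 66.1 in TGFb1 and 106 in shCtrl, with shPJA1 lowest and a departure of 1.47 (0.79 to 2.19) and 1.23.

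The nuclear proteins ZNF703, NACC1 and CENPB were also among the 15 highest. ZNF703, a transcriptional cofactor, had 97.8 normalized counts in the library titled shPJA/TGFb1 and 68.4 in shPJA1, compared with 33.0 in TGFb1 and 70.1 in shCtrl, with a departure of 1.57 (0.84 to 2.36) and 1.21 after GC removal. NACC1, a BTB-domain regulator, had 215 normalized counts in the library titled shPJA/TGFb1 and 131 in shPJA1, compared with 112 in TGFb1 and 181 in shCtrl, with a departure of 1.40 (0.94 to 1.88) and 1.07, and the library titled shPJA/TGFb1 was the farthest. CENPB, which binds centromeric repeats, departed by 1.37 (0.59 to 2.20) and 0.99.

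HNF4A and G6PC lay above additivity and RORA below. HNF4A, a master transcription factor of hepatocytes, had 359 normalized counts in the library titled shPJA/TGFb1 and 295 in shPJA1, compared with 205 in TGFb1 and 341 in shCtrl, with a departure of 1.01 (0.67 to 1.36) and 0.84 after GC removal. G6PC, glucose-6-phosphatase of gluconeogenesis, had 91.3 normalized counts in the library titled shPJA/TGFb1 and 72.0 in shPJA1, compared with 38.7 in TGFb1 and 76.0 in shCtrl, with a departure of 1.29 (0.58 to 2.05) and 1.27. Both were lowest in the TGFb1 library. RORA, a nuclear receptor of metabolism and the clock, had 31.0 normalized counts in the library titled shPJA/TGFb1 and 61.2 in shPJA1, compared with 72.3 in TGFb1 and 42.1 in shCtrl, with a ratio of 0.506 (0.287 to 0.851) in the hairpin pair and 1.72 (1.18 to 2.56) in the control pair. Its departure was -1.73 (-2.75 to -0.80) and -1.39 after GC removal.

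MYOF had the lowest departure of all members. MYOF, a ferlin of membrane repair and a YAP/TEAD target, had 79.9 normalized counts in the library titled shPJA/TGFb1 and 126 in shPJA1, compared with 109.9 in TGFb1 and 51.4 in shCtrl. The library titled shPJA/TGFb1 was below shPJA1 while TGFb1 was above shCtrl, and shCtrl was the lowest of the 4. The ratio was 0.634 (0.448 to 0.883) in the hairpin pair and 2.14 (1.53 to 3.04) in the control pair, a departure of -1.73 (-2.46 to -1.05) that was -1.73 after GC removal.

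LSAMP, an IgLON cell adhesion molecule, was high in both TGFb1-titled libraries, with 79.9 normalized counts in the library titled shPJA/TGFb1 and 28.8 in shPJA1, compared with 89.4 in TGFb1 and 12.9 in shCtrl. The ratio was 2.77 (1.74 to 4.47) in the hairpin pair and 6.95 (3.78 to 14.2) in the control pair. The departure of -1.27 (-2.56 to -0.16), or -1.03 after GC removal, rests on 11 reads in shCtrl.

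RAD17 was among the 15 lowest. RAD17, a checkpoint clamp loader, had 52.2 normalized counts in the library titled shPJA/TGFb1 and 98.1 in shPJA1, compared with 76.9 in TGFb1 and 56.1 in shCtrl, with a departure of -1.35 (-2.16 to -0.58) and -1.09 after GC removal. UNG, the uracil DNA glycosylase, lay above additivity, at 1.13 (0.28 to 2.01) and 1.01.

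YOD1, FBXO3, FBXW5 and RNF14 act in the ubiquitin pathway and lay below additivity, while other genes of that pathway lay above it. Among those above, RNF121 departed by 0.98 (0.18 to 1.81) and 0.79 after GC removal. WWP2 was also above, at 0.76 (0.19 to 1.35) and 0.51. YOD1, a deubiquitinase, had 66.8 normalized counts in the library titled shPJA/TGFb1 and 67.5 in shPJA1, compared with 104 in TGFb1 and 40.9 in shCtrl, with nearly equal counts in the hairpin pair. Its departure was -1.34 (-2.17 to -0.56) and -1.01 after GC removal. FBXO3, an F-box protein, departed by -1.24 (-2.18 to -0.35) and -0.92, and FBXW5, another F-box protein, by -1.05 (-1.94 to -0.21) and -1.44. RNF14, a ring-between-ring ligase, departed by -1.07 (-2.02 to -0.18) and -0.83, with the library titled shPJA/TGFb1 lowest.

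The remaining genes of the 15 lowest had departures between -1.36 and -1.21. They were FAM214A, ARMC1, ASUN, RHOT2, CAPZA2, RPS6KC1, RPAP3, PPP1R12B and SGMS2. CAPZA2, an actin capping subunit, had 83.1 normalized counts in the library titled shPJA/TGFb1 and 121 in shPJA1, compared with 145 in TGFb1 and 87.7 in shCtrl, with a departure of -1.25 (-1.89 to -0.64) and -1.02 after GC removal. RHOT2, a mitochondrial GTPase, had 40.7 normalized counts in the library titled shPJA/TGFb1 and 65.7 in shPJA1, compared with 57.0 in TGFb1 and 37.4 in shCtrl. For RHOT2 the departure was -1.27 (-2.24 to -0.37) and was -1.64 after GC removal, larger in size, for a transcript of 65.8% GC. MERTK, a receptor tyrosine kinase, had 50.5 normalized counts in the library titled shPJA/TGFb1 and 89.1 in shPJA1, compared with 85.4 in TGFb1 and 67.8 in shCtrl, with a departure of -1.14 (-1.93 to -0.38) and -1.17.

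Among the 555 genes of at least 500 normalized counts the counting error was smallest, with a median interval width of 0.44. After IER3 and SLC1A5, the next highest were CALR, an endoplasmic reticulum chaperone, at 0.84 (0.62 to 1.07) and CPLX2, a complexin, at 0.83 (0.57 to 1.10). SLC1A5, a glutamine transporter, had 570.5 normalized counts in the library titled shPJA/TGFb1 and 444 in shPJA1, compared with 399.8 in TGFb1 and 633 in shCtrl, with a departure of 1.02 (0.76 to 1.29). After GC removal SLC1A5 was at 0.72, CALR at 0.64 and CPLX2 at 0.57.

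The lowest of the abundant genes were HSPH1, a heat shock protein, at -0.71 (-0.96 to -0.45), KYNU, kynureninase, at -0.71 (-0.95 to -0.46) and DST, the cytoskeletal linker dystonin, at -0.69 (-0.79 to -0.59). DST had 3412 normalized counts in the library titled shPJA/TGFb1 and 3993 in shPJA1, compared with 4545 in TGFb1 and 3304 in shCtrl. TRIM33, a ubiquitin ligase for SMAD4, had 481 normalized counts in the library titled shPJA/TGFb1 and 534 in shPJA1, compared with 636 in TGFb1 and 457 in shCtrl, with a departure of -0.63 (-0.89 to -0.36). These 4 have transcripts of 40.0%, 36.5%, 41.3% and 39.0% GC, and after GC removal their departures were -0.45, -0.38, -0.47 and -0.34.

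Gene lists were described by how many members departed by 1.5-fold, against 7.4% above and 7.72% below over all genes, and by the median departure, against -0.03 over all genes. TGF-beta and SMAD3 target genes were near this background: 3 of 34 members lay at least 1.5-fold above additivity and 1 at least 1.5-fold below, with a median of 0.10 that was 0.0085 after GC removal. The 3 above were JUNB, LIMK2, a kinase of cofilin, and SPHK1, which makes sphingosine-1-phosphate, and the one below was SMURF2. For SMADs, TGF-beta receptors and SMAD ligases, 1 of 34 members lay at least 1.5-fold above additivity and 3 at least 1.5-fold below, with a median of -0.12. WWP2, a SMAD ligase, was the member above, at 0.76 (0.19 to 1.35), and ACVR2A, an activin receptor, was lowest at -0.75 (-1.44 to -0.068). After GC removal, when 4.85% of all genes lay 1.5-fold above and 4.81% below, 0 and 0 of the 34 did so. For the ID and BMP target list, 0 of 3 members lay at least 1.5-fold above additivity and 1 at least 1.5-fold below, that member being ID2.

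Ribosomal protein genes lay above 0 in 40 of 56 cases, against 47.2% of all genes, and 11 of 56 members lay at least 1.5-fold above additivity and 0 at least 1.5-fold below. The median was 0.12 and 0.20 after GC removal, when 8 and 1 departed upward and downward. RPS21 had 53.8 normalized counts in the library titled shPJA/TGFb1 and 45.9 in shPJA1, compared with 41.0 in TGFb1 and 86.5 in shCtrl, with a departure of 1.28 (0.46 to 2.14), and RPS9 departed by 1.13 (0.56 to 1.72). These genes have many processed pseudogenes that can share reads, so single members are uncertain. For oxidative phosphorylation genes, 10 of 50 members lay at least 1.5-fold above additivity and 1 at least 1.5-fold below. Their median was 0.24 and 0.18 after GC removal.

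Hepatocyte secreted proteins also lay above 0 for the most part, with 31 of 38 members above 0, against 47.2% of all genes. Their median was 0.23, or 0.13 after GC removal. Of these, 4 departed upward by 1.5-fold and 0 downward. RBP4, the retinol carrier, had 271 normalized counts in the library titled shPJA/TGFb1 and 218 in shPJA1, compared with 155 in TGFb1 and 215 in shCtrl, with a departure of 0.78 (0.37 to 1.19), and AHSG, fetuin-A, had 1346 normalized counts in the library titled shPJA/TGFb1 and 1194 in shPJA1, compared with 981 in TGFb1 and 1454 in shCtrl, with a departure of 0.74 (0.58 to 0.91). In both the TGFb1 library was lowest. The markers of the hepatocyte lineage, many of which are secreted proteins of that list, had 10 of 11 above 0 and a median of 0.20. KRT8 and KRT18 were highest in the TGFb1 library, and ALB and FGB were lowest in the library titled shPJA/TGFb1. The other markers were lowest in TGFb1. The summed level of the markers, mostly from APOB, was lowest in the TGFb1 library as given above. Whether that level has a part in these departures was not tested.

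For DNA replication genes 2 of 13 members lay at least 1.5-fold above additivity and 1 at least 1.5-fold below, with a median of -0.25, or -0.14 with 1 above and 2 below after GC removal. Of these, RRM2, a ribonucleotide reductase subunit, was at 0.98 (0.27 to 1.73) and PCNA, the sliding clamp, at -0.60 (-1.14 to -0.081). For mitosis genes 3 of 13 members lay at least 1.5-fold above additivity and 0 at least 1.5-fold below, with a median of 0.16, or 0.26 with 1 above and 0 below after GC removal. Of the 5 histone genes with enough reads, HIST1H4E alone departed by 1.5-fold, while HIST1H2BC, HIST1H1E and HIST1H2AC were at 0.52 (-0.24 to 1.28), 0.40 (-0.046 to 0.85) and 0.25 (-0.35 to 0.85).

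Of 82 ubiquitin ligases, deubiquitinases and proteasome genes, 2 lay at least 1.5-fold above additivity and 11 at least 1.5-fold below. Over all genes the shares were 7.4% and 7.72%. Of the 82, 33 lay above 0, against 47.2% of all genes, and 38 did so after GC removal. After GC removal the numbers departing by 1.5-fold were 1 and 8, against 4.85% and 4.81% of all genes. The median, -0.10 before, was then -0.044. RNF6, a ring finger ligase, had 165 normalized counts in the library titled shPJA/TGFb1 and 229.6 in shPJA1, compared with 211 in TGFb1 and 154 in shCtrl, with a departure of -0.92 (-1.39 to -0.47) and -0.73 after GC removal. The splicing list of CLK kinases, SR proteins and hnRNP factors had a median of -0.20, and CLK4, a kinase of SR proteins, was at -0.99 (-1.68 to -0.33). That median was -0.015 after GC removal, for a list with a median GC content of 41.5%.

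For the other lists the numbers of members departing by 1.5-fold are given, against 7.4% above and 7.72% below over all genes. These lists are short, so a few members can make a large share. Of 31 immediate early genes 4 lay above and 1 below, and of 19 NF-kappaB responsive genes 4 lay above and 3 below. After GC removal, with 4.85% of all genes above and 4.81% below, immediate early genes had 4 above and 2 below. The NF-kappaB responsive genes then had 2 above and 2 below. Of 18 YAP/TEAD targets 0 lay above and 2 below, these being MYOF and AMOTL2, an angiomotin, at -0.68 (-1.46 to 0.085). The 18 had a median of -0.14, or -0.20 after GC removal, and 5 of them lay above 0, against 47.2% of all genes. Of 33 heat shock proteins and chaperonins 0 lay above and 2 below, and of 39 stress response genes 4 lay above and 2 below. Of 29 metallothioneins and NRF2 targets 2 lay above and 3 below, with AKR1B10, an aldo-keto reductase, at -0.65 (-0.97 to -0.32). Of 20 cholesterol and fatty acid synthesis genes 2 lay above and 2 below, with the synthase HMGCS1 at -0.85 (-1.60 to -0.12). Secretory transport genes had 3 of 38 above and 0 below. Glycolysis and hypoxia genes had 2 of 26 above and 1 below, and hepatocyte transcription factors had 1 of 23 above and 2 below. Actin, matrix and mesenchymal genes had 2 of 39 above and 0 below, epithelial junction and keratin genes had 1 of 25 above and 0 below, and nuclear and host long noncoding RNAs had 2 of 9 above, RMRP and RPPH1, and 0 below. Among markers of other cell types with enough reads, LYZ, lysozyme, departed by 0.24 (0.067 to 0.42) and CD68, a lysosomal protein, by 1.03 (0.54 to 1.53). ACTA2, smooth muscle actin, departed by 0.14 (-0.31 to 0.59), and the biliary markers KRT19, SOX9 and SPP1 by 0.31 (0.064 to 0.56), 0.66 (0.45 to 0.87) and -0.33 (-0.48 to -0.18).

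**Figure D5:**
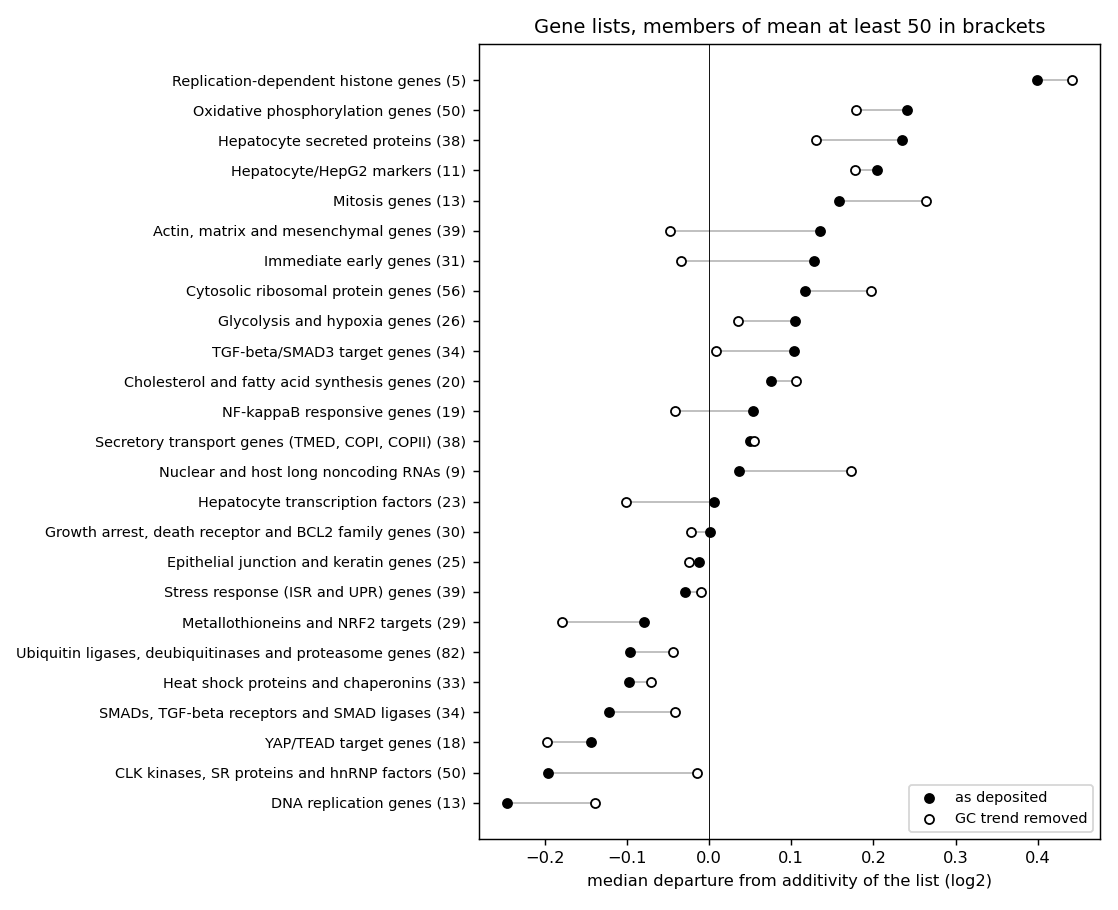
Median departure from additivity (horizontal axis, log2) of 25 gene lists with at least 5 members of mean at least 50, as deposited (filled) and with the GC trend removed (open), with the number of members in brackets. As deposited, replication-dependent histone and oxidative phosphorylation genes lie highest and DNA replication genes lowest. With the GC trend removed, histone genes (0.44) and mitosis genes (0.26) lie highest and YAP/TEAD targets (-0.20) lowest. Several lists move toward 0 when the trend is removed, and others move away from it.

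A model with a hairpin term and a TGFb1 term and no departure was fitted to the recovered reads of all 6166 genes with edgeR's quasi-likelihood test. Its 1 residual degree of freedom per gene is the departure itself, so the fit asks whether a shared TGFb1 change is large against the departures of genes in general, whose common spread was a coefficient of variation of 10.6%. With Benjamini-Hochberg adjustment at 0.05 the TGFb1 term rose for 3 genes (0.0487%) and fell for 4 (0.0649%). SMAD7 rose by 1.07 on the log2 scale (edgeR adjusted p = 0.0008284), LSAMP by 2.01 (edgeR adjusted p = 2.938e-07) and CYR61 by 0.86 (edgeR adjusted p = 0.04956). IER3 fell by 1.08 (edgeR adjusted p = 2.741e-07), RASD1 by 0.95 (edgeR adjusted p = 0.003923) and NEAT1, the scaffold RNA of paraspeckles, by 0.66 (edgeR adjusted p = 0.03517). The uncharacterised LOC100216546 fell by 1.09 (edgeR adjusted p = 0.0355). With the GC trend as an offset the TGFb1 term was called upward for 4 genes (0.0655%) and downward for 7 (0.115%). DESeq2 called 0 genes for this term, with 22 at an unadjusted p under 0.05, against 176 with edgeR.

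These genes differ in their own departures. NEAT1 had 714 normalized counts in the library titled shPJA/TGFb1 and 1093 in shPJA1, compared with 752 in TGFb1 and 1182 in shCtrl, with a departure of 0.037 (-0.16 to 0.24), the nearest to 0 of the 7. SMAD7, CYR61 and LOC100216546 had intervals that include 0. IER3, RASD1 and LSAMP had the same direction in both pairs with a smaller change in the hairpin pair. The hairpin term was called for 0 genes by edgeR and 0 by DESeq2, with 87 and 3 at an unadjusted p under 0.05. When genes of mean at least 20 were fitted, CYR61, NEAT1 and LOC100216546 were no longer called, and PJA1 was called for the hairpin term, falling by 1.80 on the log2 scale (edgeR adjusted p = 0.01048).

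At the level limit of 50, the members just inside were LEMD2, with a departure of 1.01, and MCART1, with 0.88. Just outside lay TMPPE, with -0.82, and C15orf52, with -0.36.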

How the data were processed

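RNA of HepG2 cells was sequenced in 4 libraries, which per the labels' protocols were prepared with a TruSeq kit from total RNA. Per the submitters' processing notes the tools were TopHat2 2.0.10, Cufflinks, Trimmomatic and FastQC. Neither the genome build and annotation nor the handling of strand is given in the sources used here. The deposited table is named as FPKM, but in each library 100% of its values are whole multiples of 1 step within a tolerance of 1e-06, so the deposited signal is reads divided by a size factor. The size factors were 0.614 in the library titled shPJA/TGFb1, 1.11 in shPJA1, 1.76 in TGFb1 and 0.856 in shCtrl. A floor of 3 reads is worth 4.89, 2.70, 1.71 and 3.51 normalized counts in these libraries. Comparisons were planned for FPKM, and their size rule was kept for these normalized counts. Groups follow the titles, since the treatment label of 1 library goes against its title. Nothing says that the libraries came from separate cultures.

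Departures used a pseudocount of 1 and a mean of at least 50. Log2 ratios with a pseudocount understate changes of low genes, while pair ratios are plain ratios of normalized counts. Intervals are 95% exact conditional intervals of the odds ratio of 4 read counts, or of the ratio of a pair. GC content came from the longest GENCODE 29 transcript of each symbol (99.1% of genes matched), and a lowess trend (span 0.3) of each library's deviation on GC was subtracted. Additive models were fitted with edgeR 4.0.16 and, as an alternative, DESeq2 1.42.0, in R 4.3.3. Scripts were tested on simulated data.

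Genes are named if they were among the 15 highest or 15 lowest departures, the 10 highest or lowest of mean at least 500, PJA1 and the TGF-beta check genes, up to 4 members of each of 30 lists with the largest departures, called by the additive fit, or next to the level limit. Some genes that this rule names are not reported here. Small RNAs and uncharacterised loci were left out of the ranks. Genes 2-fold with and without the GC trend (such as MERTK, FBXW5, UNG and G6PC), the telomerase RNA and HIST1H4C were added after their values were seen. Members and lists were chosen with earlier results of these data known, so no list's direction is independent evidence. Alternatives were other pseudocounts, level limits, scalings and trend removals.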

Additional observations from a re-analysis of the deposited data

Results flagged for a closer look

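The 28 genes given here were picked from the named genes only. In each, the hairpin pair and the control pair moved in opposite directions, each beyond its own counting interval, with a departure of at least 2-fold. Among all 6166 genes, 28 above additivity and 18 below met this rule, so the list is not complete. The difference between the pairs was not tested, since each condition has 1 library. The values are departures on the log2 scale. In the 9 genes below additivity, the TGFb1 ratio was under 1 in the hairpin pair and over 1 in the control pair. They were MYOF at -1.73, RORA at -1.73, ARMC1 at -1.29, ASUN at -1.29, RHOT2 at -1.27, CAPZA2 at -1.25, RPS6KC1 at -1.24, NOA1 at -1.12 and BIRC3 at -1.01. In the 19 genes above, the ratio was over 1 in the hairpin pair and under 1 in the control pair. The highest were HIST1H4E at 2.20, TOMM40 at 1.77, PSMG3 at 1.62, EFNA2 at 1.62, ZNF703 at 1.57, PGC at 1.47, SYMPK at 1.45, NACC1 at 1.40 and RAB11B at 1.38. The others were CENPB at 1.37, PHF2 at 1.30, JUND at 1.29, CLDN6 at 1.24, UBXN1 at 1.24, SH3BP2 at 1.23, RPS9 at 1.13, UQCRQ at 1.11, SLC1A5 at 1.02 and HNF4A at 1.01. Among them RPS9 and UQCRQ belong to the ribosome and the respiratory chain, CLDN6 is a claudin of fetal epithelia, PHF2 a histone demethylase, UBXN1 a cofactor of the p97 ATPase and SH3BP2 a signalling adaptor. GC content runs higher in the genes above than in those below, as given in the report for all 2-fold departures.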

How the results depend on the processing

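The counts of genes departing 2-fold depended most on the level limit and on the GC trend. Against 72 above and 57 below, removal of the GC trend left 40 and 33, and removal of the GC and transcript length trends (chosen after seeing the data) left 38 and 33. A mean of at least 20 gave 233 and 199, a mean of at least 100 gave 16 and 12, and no filter gave 1780 and 1785. The level limit changes the number of genes tested by its construction, and the cause of the GC trend was not tested. With a pseudocount of 0.5 the counts were 73 and 60, with 5 they were 57 and 38, with TMM scaling 65 and 62, and with quantile normalization 69 and 55. Under TMM 65 genes above and 57 below were the same genes as in the reported lists, and under GC removal 27 and 21 were. Requiring a counting interval that leaves out 0 kept all 72 and 57, which the level limit and the 2-fold rule nearly ensure. Removing the GC trend moved 23 named genes beyond their counting interval and left 141 within it, and it moved 11 of 29 list medians by over 0.1. No named gene with a 2-fold departure reversed its sign under these settings, while 5 medians of lists with at least 5 members turned below 0 under GC removal, to -0.034 for immediate early genes (0.13 before), -0.048 for actin, matrix and mesenchymal genes (0.14), -0.042 for NF-kappaB responsive genes (0.054), -0.10 for hepatocyte transcription factors (0.0056) and -0.022 for growth arrest, death receptor and BCL2 family genes (0.0015). The additive fit called 7 genes with edgeR, 0 with DESeq2, 5 at a mean of at least 20 and 11 with the GC trend as an offset, where CTGF, CLK1, GPAM, KCNQ1OT1 and OBFC2A came in and LOC100216546, which has no GC value, was not fitted. No paired analysis was possible because each condition has 1 library. Leaving out a library gives no departure, which needs all 4. Depth limits the departures of genes with a mean of 50 to 100, whose intervals had a median width of 1.48 log2 units.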

Other observations

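HIST1H4C and TERC were looked up after the values of HIST1H4E, RMRP and RPPH1 were seen, and are given as values only. HIST1H4C, another H4 gene, below the level limit with a mean of 37.2, had 48.9 normalized counts in the library titled shPJA/TGFb1 and 29.7 in shPJA1, compared with 18.8 in TGFb1 and 51.4 in shCtrl, with a departure of 2.11 (1.13 to 3.21). TERC, the RNA template of telomerase, had 29.3 normalized counts in the library titled shPJA/TGFb1 and 20.7 in shPJA1, compared with 17.1 in TGFb1 and 25.7 in shCtrl, with a departure of 1.05 (-0.22 to 2.40), an interval that includes 0. Of the other histone genes with a mean of at least 20, HIST1H2BD, HIST1H1C, H2AFX and HIST2H2BE were below 0, at -0.67 (-1.91 to 0.52), -0.18 (-0.97 to 0.59), -0.14 (-1.14 to 0.84) and -0.05 (-1.29 to 1.17). HIST1H4H was above 0, at 0.34 (-1.07 to 1.79), as were the 3 genes given with the histone list. Of these 13 genes, which include those that prompted the look, 8 were lowest in the TGFb1 library. That library was lowest for 24.0% of all genes of mean at least 50. The 13 genes were taken at a mean of at least 20, so this is not a like comparison.

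MPV17L, TAF8 and NTN4 are among the genes not described so far that stayed 2-fold from additivity with the GC trend removed. MPV17L, a peroxisomal and mitochondrial protein, had 73.3 normalized counts in the library titled shPJA/TGFb1 and 53.1 in shPJA1, compared with 34.2 in TGFb1 and 56.1 in shCtrl, with a departure of 1.16 (0.35 to 2.01) and 1.25 after GC removal. TAF8, a subunit of the general factor TFIID, had 101 normalized counts in the library titled shPJA/TGFb1 and 63.0 in shPJA1, compared with 51.3 in TGFb1 and 69.0 in shCtrl, with a departure of 1.09 (0.39 to 1.83) and 1.07. NTN4, a netrin of basement membranes, departed by -1.05 (-1.93 to -0.22) and -1.09. None of these has a replicate check.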
